A study of Homo sapiens with 11 samples.

Results

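The transcripts of 10 heat shock proteins of the cytosol and the mitochondria were followed through 11 xenograft tumours, out of 28152 gene symbols in the count table. The genes were taken by symbol: HSPA1A, HSPA1B, HSPA8, HSP90AA1, HSP90AB1, DNAJB1, HSPH1, HSPB1, HSPD1 and HSPE1. All 10 were in the table, and 9 of them passed the filter on low counts. HSPA1A did not.

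By their labels, the tumours were grown from BT-474, an established human breast cancer line labelled HR+/Her2+. They grew in the mammary fat pad of female Athymic Nude mice, which lack T cells. Every animal, controls included, carried an estradiol pellet of 0.72 mg made to last 90 days, and entered the study once its tumour exceeded 95 mm3. The 6 vehicle animals (replicates 001, 003, 004, 005, 006 and 007) were injected under the skin with 5% mannitol in water every 4 days. The 5 treated animals (replicates 002, 003, 004, 005 and 007) were given evexomostat (SDX-7320) at 12 mpk on the same schedule in the same vehicle; the drug inhibits MetAP2, which trims the starting methionine off newly made proteins. All libraries were labelled day 33, and each came from a portion of 1 tumour. Whether reads of the mouse host were removed is not given in the sources used here. In such bulk samples, fewer cells of a type and less RNA per cell cannot be told apart.

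Heat shock proteins are molecular chaperones, which bind unfolded or newly made proteins and help them fold. In the cytosol, J-domain proteins such as DNAJB1 deliver clients to HSP70, nucleotide exchange factors such as HSPH1 release them, and HSP90 finishes the folding of kinases and steroid receptors, HER2 among them. In the mitochondrial matrix, HSPD1 (HSP60) and its lid HSPE1 (HSP10) form a folding chamber. Heat, oxidative damage and other protein-unfolding stress activate the transcription factor HSF1, which binds repeats of a short GAA unit in alternating orientation in front of these genes.

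The windows in front of the genes were read for that unit, since a shared switch would be read there. RefSeq lists 16 start sites for the 10 genes (GRCh38.p14), and the 250 bases before each were searched for GAANNTTC and TTCNNGAA, both of which read the same on either strand and which overlap wherever 3 or more units follow each other. Of the member starts, 8 of 16 (50.0%), belonging to 8 of the 10 genes, held at least 2 alternating units with 2 bases between them, where 11.6% of all 35116 starts did. GAANNTTC alone was in 5.78% and TTCNNGAA in 6.62% of all starts. Runs of 3 or more units lay before HSPA8, HSP90AA1, HSP90AB1 and HSPD1, a length found before 0.441% of all starts. The 4 runs are printed 5′ to 3′ on the strand of the gene, with HSPA1A and HSPA1B beside them because their windows are almost the same; capitals mark the units.
HSPA8: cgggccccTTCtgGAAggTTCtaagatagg
HSP90AA1: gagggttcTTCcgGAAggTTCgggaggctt
HSP90AB1: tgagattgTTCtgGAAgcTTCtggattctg
HSPD1: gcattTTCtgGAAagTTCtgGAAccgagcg
HSPA1A: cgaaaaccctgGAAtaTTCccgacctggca
HSPA1B: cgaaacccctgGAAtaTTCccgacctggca

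Coordinates are those of the 30 printed bases, and distances are counted from the last base of the run to the start site. The HSPA8 stretch lies at chr11:123062170-123062199 on the minus strand, and its run ends 43 bases before the start site. That of HSP90AA1 lies at chr14:102087111-102087140 on the minus strand, and its run ends 76 bases before the start at 102087044. That of HSP90AB1 lies at chr6:44247823-44247852 on the plus strand, and its run ends 100 bases before the start at 44247943. The HSPD1 stretch, with 4 units, lies at chr2:197500061-197500090 on the minus strand, before the start at 197499840. It is inside the gene as counted from its other start at 197500274. HSPA1A (chr6:31815426-31815455) and HSPA1B (chr6:31827622-31827651), both on the plus strand, carried 2 units each. DNAJB1 and HSPB1 held 2 units as well, and none was found before HSPH1 or HSPE1. HSPD1 and HSPE1 point away from each other, and the 104 bases between their starts (chr2:197500275-197500378, plus strand, 74.0% G and C) held no pair of units; they are shown because both genes are read outward from this stretch.
HSPD1 to HSPE1: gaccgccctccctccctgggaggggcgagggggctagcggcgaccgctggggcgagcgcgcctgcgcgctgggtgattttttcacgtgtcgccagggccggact

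A match of this kind describes letters only, and the absence of one says only that these letters are not in this window.

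The shallowest library, evexomostat replicate 003, held 22808033 counts and the deepest, vehicle replicate 003, held 39249329. Vehicle replicate 001 stood apart: 14.5% of its counts fell on ribosomal protein genes, where the remaining vehicle tumours had 4.87% to 7.08% and evexomostat tumours 7.14% to 8.73%, and its shorter transcripts were over-represented (log2 level fell by 0.16 per doubling of transcript length, against a range of -0.07 to 0.06 in the other libraries). Evexomostat replicate 003 had the lowest length slope of its group and the lowest HSPA8. Results are given with and without these libraries. The label was checked against 10 luminal breast genes, of which 5 had a median under 1 RPM (the count divided by the library total and scaled as in CPM). KRT8 (median 319 RPM), KRT18 (149 RPM), ERBB2 (56.6 RPM), GATA3 (5.17 RPM) and EPCAM (3.07 RPM) lay above it, while ESR1 (0.218 RPM), PGR (0.0877 RPM), CDH1 (0.348 RPM), KRT19 (0.611 RPM) and FOXA1 (0.977 RPM) lay below it. ERBB2, the gene of HER2, was thus detected, but below KRT8 and KRT18, and a level above 1 RPM does not settle the Her2+ part of the label. The low ESR1 and PGR, the genes of the hormone receptors, go against the HR+ part. Summed skeletal muscle markers (12 genes, none at 0 in all libraries) ran from 5.43 to 22.8 RPM in vehicle and from 6.70 to 549 RPM in evexomostat libraries. The 549 RPM was in evexomostat replicate 005 alone, and the next highest was replicate 004 at 62.3 RPM.

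Per length of transcript, HSPA8 was the most abundant of the 10, with a median of 631 RPM per kilobase (range 152 to 735). HSP90AB1 (412, range 282 to 449) and HSP90AA1 (405, range 250 to 822) followed and could not be told apart. HSPD1 reached 303 RPM per kilobase, HSPB1 181, DNAJB1 73.6, HSPE1 72.5 and HSPH1 45.1; the ranges of DNAJB1 and HSPE1 overlapped. The pair of inducible HSP70 genes lay far below, at 2.85 for HSPA1B and 0.0376 for HSPA1A. Together the 10 genes took 0.377% to 0.709% of the counts of a library, the lowest share in evexomostat replicate 003 and the highest in vehicle replicate 001.

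**Figure D1:**
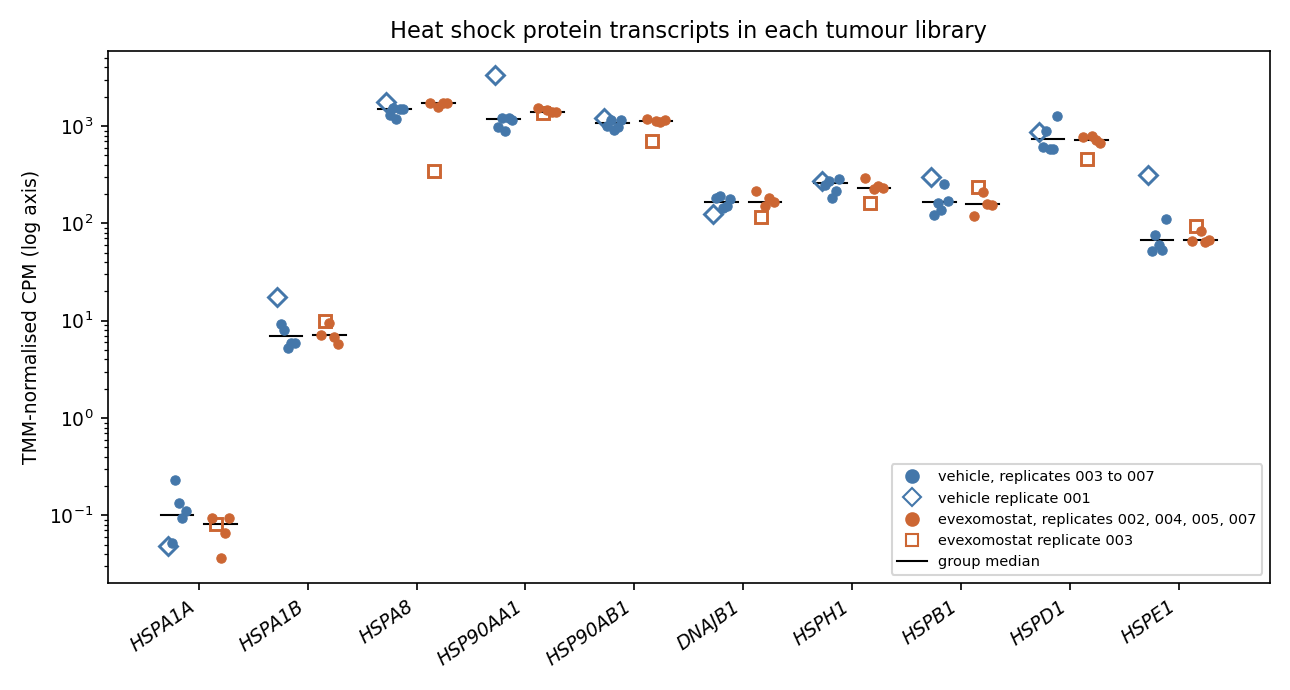
Level of each heat shock protein transcript in each library, as CPM on a log axis; vehicle in blue and evexomostat in orange, with the group median as a line. Vehicle replicate 001 (open diamond) lies above its group for HSP90AA1 (3354 CPM) and HSPE1 (313 CPM), and evexomostat replicate 003 (open square) lies below its group for HSPA8 (346 CPM).

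No difference between the groups was detected for any tested member with all libraries. In edgeR's quasi-likelihood test, 0 of 9 tested members passed an adjusted p of 0.05, and 0 did so before adjustment; over all 16653 tested genes 101 passed, or 0.606%, and 13.4% did before adjustment. DESeq2 called 0 of 9, beside 3.9% of all tested genes, and limma-voom with quality weights called 0 of 9, beside 6.37%. The median log2 fold change of the members (evexomostat over vehicle) was -0.08 beside -0.04 over all tested genes, with a range from -0.56 for HSPE1 to 0.03 for DNAJB1. Levels are given as CPM, counts scaled to a common library size with edgeR's TMM factors. The groups overlapped for all 9 tested members, where 2.97% of tested genes did not overlap. In the authors' deposited table, log2 fold changes of the 10 genes lay between -0.51 (HSPA1A) and 0.11 (DNAJB1), each with an adjusted p of 1.0.

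HSPA1A and HSPA1B encode the same stress-inducible HSP70. HSPA1A had 1 to 8 counts per library, and its 5 evexomostat libraries had 3, 2, 1, 2 and 3 counts. HSPA1B, in CPM, was 5.22 at the lowest, 7.00 at the median and 17.7 at the highest in vehicle tumours, and 7.10, 9.88, 9.41, 6.82 and 5.72 in evexomostat replicates 002, 003, 004, 005 and 007. Vehicle replicate 001 held the highest value, and the groups overlapped. Without it, evexomostat replicates 003 and 004 lay above the other vehicle libraries, which reached 9.18 CPM, and the remaining 3 lay within their range. The log2 fold change was -0.15 ± 0.31 (SE; edgeR adjusted p = 0.892; 95% interval -0.81 to 0.51) and 0.19 without vehicle replicate 001.

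These counts cannot be read as the level of inducible HSP70. In GENCODE transcripts, 67.1% of all 150-base windows of HSPA1A also occur in HSPA1B. The genes around them were nearly silent in the table: of the 38 neighbours of HSPA1A with a row (20 on each side), 35 had a median under 1 RPM (92.1%), and of those of HSPA1B 36 did. Around the other members this share was 12.5% to 59.0%, and over all protein-coding genes it was 32.5%. Among these neighbours on chromosome 6 is CSNK2B, a kinase subunit, at a median of 0.449 RPM. BAG6, a chaperone of membrane proteins on the same chromosome arm, was at 0.0973 RPM. RPS18, also there, a subunit of every ribosome, had 0.156 RPM where the median of 81 ribosomal protein genes was 783 RPM. How reads with several matching places were handled is not given in the sources used here, and its part in these low counts was not tested. The other members shared at most 0.0434% of their 150-base windows with another gene. Of 50-base windows, HSPD1 shared 24.8%, HSP90AB1 18.8%, HSPE1 17.8%, HSP90AA1 17.5%, HSPA8 15.4%, HSPB1 11.4% and DNAJB1 2.57%, while HSPH1 shared none. For HSPA1A that share was 72.6%.

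HSPA8 encodes the constitutive HSP70 of the cytosol, which folds new proteins in unstressed cells. It was 1186 CPM at the lowest, 1491 at the median and 1782 at the highest in vehicle tumours. The evexomostat libraries had 1726, 346, 1568, 1719 and 1708 CPM (replicates 002, 003, 004, 005 and 007). Thus 4 evexomostat tumours lay within a narrow band at the top of the vehicle range, and replicate 003 lay far below every other tumour. Its HSPA8 level was 4.95-fold below the median of the other evexomostat libraries, the largest such drop among 3842 genes with a median log2 CPM over 6. The same library held 103 CPM of DNAJB2 and 236 CPM of HSPB1, the highest of its group in both.

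With all libraries the log2 fold change of HSPA8 was -0.05 ± 0.32 (SE; edgeR adjusted p = 0.969; 95% interval -0.74 to 0.63). Without evexomostat replicate 003 it was 0.20 (edgeR adjusted p = 0.65). In CPM the groups then still overlapped for all 9 tested members, where 2.25% of tested genes were higher without overlap. In RPM, HSPA8 and HSP90AB1 were higher without overlap, as were 4.11% of tested genes. Without that library and vehicle replicate 001 it was 0.25 ± 0.10 (edgeR adjusted p = 0.164), and the ranges were apart, 1186 to 1548 CPM in 5 vehicle tumours and 1568 to 1726 CPM in 4 evexomostat tumours. That choice of libraries was made after the data had been seen.

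HSPH1 (HSP110), which exchanges the nucleotide of HSP70, and DNAJB1 (HSP40), which drives HSP70's ATPase, did not pass the test either. HSPH1 was 181, 259 and 286 CPM (lowest, median, highest) in vehicle tumours and 294, 162, 226, 244 and 230 CPM in evexomostat replicates 002, 003, 004, 005 and 007. DNAJB1 was 124, 165 and 193 CPM in vehicle tumours and 214, 116, 150, 184 and 164 CPM in the same evexomostat libraries. For both genes replicate 002 was the highest and replicate 003 the lowest evexomostat library, and the groups overlapped. The log2 fold change was -0.08 for HSPH1 (95% interval -0.44 to 0.28; edgeR adjusted p = 0.892) and 0.03 for DNAJB1 (95% interval -0.34 to 0.39; edgeR adjusted p = 0.972).

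HSP90AA1 is the stress-inducible cytosolic HSP90, and its value rested on 1 library. Vehicle tumours had 892 CPM at the lowest, 1171 at the median and 3354 at the highest, the last in replicate 001; the other 5 lay between 892 and 1217 CPM. The evexomostat libraries had 1551, 1358, 1457, 1385 and 1403 CPM, a spread of 76.4 CPM (SD, n = 5), all above those 5 and all below replicate 001. With all libraries the log2 fold change was -0.03 ± 0.31 (SE; edgeR adjusted p = 0.981; 95% interval -0.69 to 0.63).

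Without vehicle replicate 001, HSP90AA1 was 1086 ± 143 CPM (SD, n = 5) in vehicle and 1431 ± 76.4 CPM (SD, n = 5) in evexomostat tumours. The log2 fold change was then 0.40 ± 0.11 (SE), with an edgeR adjusted p of 0.0511 that just missed the threshold and an interval of 0.17 to 0.64. It was the only tested member whose groups did not overlap in that comparison, in which 3.98% of tested genes were higher without overlap. In the same comparison 5.22% of tested genes were called, against 0.606% with all libraries. Leaving out evexomostat replicate 003 too gave 0.41 (adjusted p = 0.0634), and in CPM HSPA8 and HSP90AA1 were the 2 members higher without overlap, beside 5.83% of all tested genes. In RPM there were 3, with HSP90AB1, beside 8.07% of all tested genes. The ribosomal share moved with this result: without replicate 001 it ran from 4.87% to 7.08% in vehicle and from 7.14% to 8.73% in evexomostat tumours, with no overlap, and its part in the difference was not tested.

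HSP90AB1 is the constitutive cytosolic HSP90. It had 904, 1082 and 1207 CPM in vehicle tumours (lowest, median, highest) and 1196, 696, 1138, 1107 and 1162 CPM in evexomostat replicates 002, 003, 004, 005 and 007. Replicate 003 was again the lowest of all libraries, and the other 4 evexomostat tumours lay in the upper part of the vehicle range. The log2 fold change was -0.01 ± 0.16 (SE; edgeR adjusted p = 0.986; 95% interval -0.36 to 0.34), the narrowest interval of the 9.

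HSPB1 (HSP27) is a small heat shock protein that holds unfolding clients without using ATP. It had 121, 167 and 303 CPM in vehicle tumours and 118, 236, 209, 159 and 156 CPM in the evexomostat libraries in the order above. Vehicle replicate 001 was the highest, next came vehicle replicate 006 at 254 CPM, and the groups overlapped. Its log2 fold change was -0.12 ± 0.25 (SE; edgeR adjusted p = 0.891; 95% interval -0.67 to 0.42).

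Of the mitochondrial pair, HSPD1 had 582, 737 and 1267 CPM in vehicle tumours and 775, 461, 784, 717 and 676 CPM under evexomostat. Its highest value was in vehicle replicate 007 and its lowest in evexomostat replicate 003. Its log2 fold change was -0.23 ± 0.23 (SE; edgeR adjusted p = 0.733; 95% interval -0.72 to 0.26). HSPE1 had 52.1, 68.1 and 313 CPM in vehicle tumours and 65.9, 94.8, 83.8, 64.2 and 68.0 CPM under evexomostat. Vehicle replicate 001 carried 313 CPM where the next vehicle library had 112 CPM. The log2 fold change of HSPE1 was -0.56 ± 0.43 (SE; edgeR adjusted p = 0.642; 95% interval -1.49 to 0.37). Without that library the log2 fold change of HSPE1 was 0.10 and its interval -0.35 to 0.55.

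**Figure D2:**
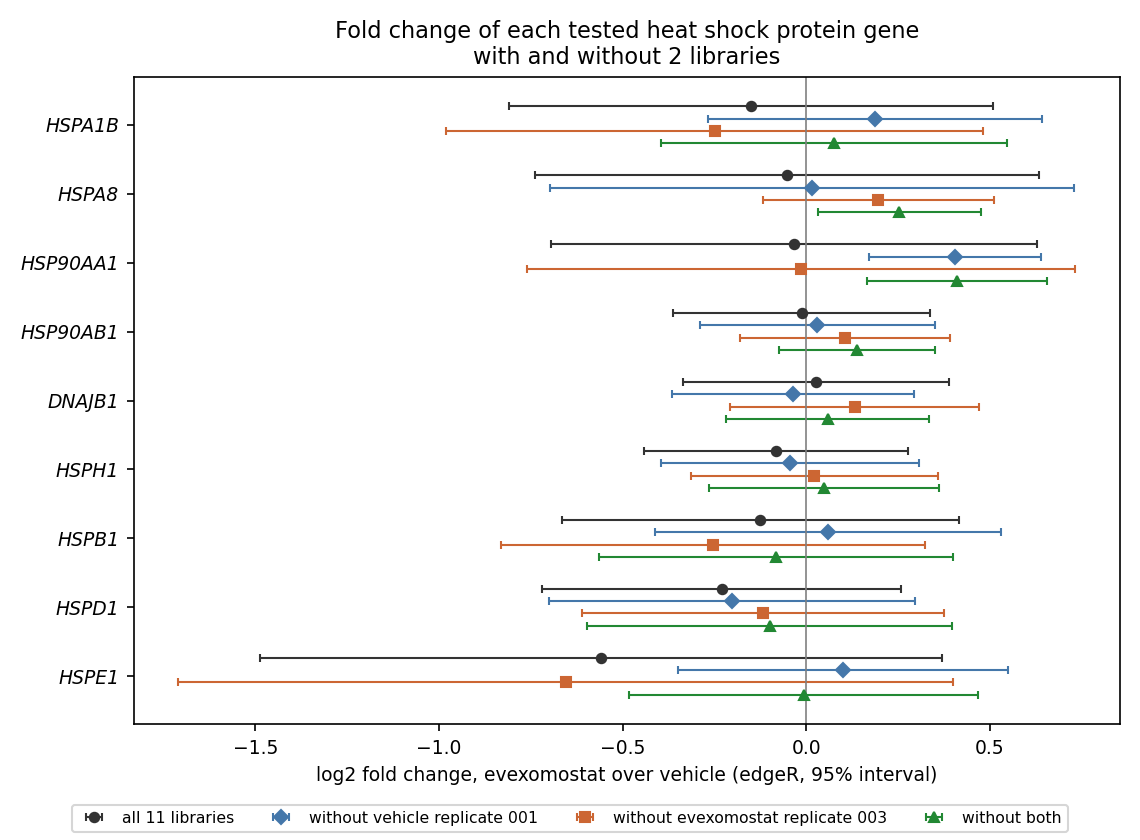
Log2 fold change of evexomostat over vehicle for the 9 tested heat shock protein genes, with 95% intervals, for all libraries and after leaving out vehicle replicate 001, evexomostat replicate 003 or both. HSP90AA1 moves from -0.03 to 0.40 when vehicle replicate 001 is left out, and HSPA8 from -0.05 to 0.25 when both are.

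Ratios within a library need no scaling between libraries, but an effect of transcript length does not cancel in them. Of such ratios, 3 were compared by an exact two-sided permutation test over 462 splits. The inducible to constitutive HSP90 ratio (HSP90AA1 to HSP90AB1, log2) was -0.05, 0.02 and 1.47 in vehicle tumours (lowest, median, highest) and 0.38, 0.96, 0.36, 0.32 and 0.27 in evexomostat replicates 002, 003, 004, 005 and 007. All 5 evexomostat tumours lay above 4 of the 6 vehicle tumours, while vehicle replicates 001 and 006 (0.30) lay within or above them. The means differed by 0.17 (exact permutation p = 0.597, adjusted over 3 ratios 0.955). Without vehicle replicate 001 the means were 0.06 ± 0.14 (SD, n = 5) and 0.46 ± 0.29 (SD, n = 5), a difference of 0.40 (exact permutation p = 0.0159, adjusted 0.0476, over 252 splits). Without evexomostat replicate 003 as well, the difference was 0.28 (adjusted exact permutation p = 0.0714), and vehicle replicate 006 still lay inside the evexomostat range. Leaving out vehicle replicate 001 removed the highest ratio, and the adjustment covers the 3 ratios but not this choice of libraries. Of the alternatives run for this ratio, 1 fell under 0.05 after adjustment and 13 did not.

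The other ratios differed less than their spread. HSPA1A and HSPA1B summed to HSPA8 had a mean log2 ratio of -7.50 ± 0.52 (SD, n = 6) in vehicle and -7.31 ± 1.26 (SD, n = 5) in evexomostat tumours (adjusted exact permutation p = 0.955). As the counts of the pair cannot be read as the level of inducible HSP70, this ratio cannot be read as inducible to constitutive HSP70. Evexomostat replicate 003, with its low HSPA8, was the highest of all at -5.12, and the other evexomostat tumours lay between -8.20 and -7.37. HSPD1 exceeded HSPE1 in counts by 9.36-fold to 11.9-fold in every library but 2: the ratio was 2.76 in vehicle replicate 001 and 4.87 in evexomostat replicate 003. On the log2 scale the vehicle mean was 3.14 ± 0.83 (SD, n = 6) and the evexomostat mean 3.17 ± 0.51 (SD, n = 5; adjusted exact permutation p = 0.955). Vehicle replicate 001 and evexomostat replicate 003 also had the lowest length slopes (-0.16 and -0.07). The HSPD1 transcript has 2.46 kilobases and that of HSPE1 0.95, and the part of length in this ratio was not tested.

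**Figure D3:**
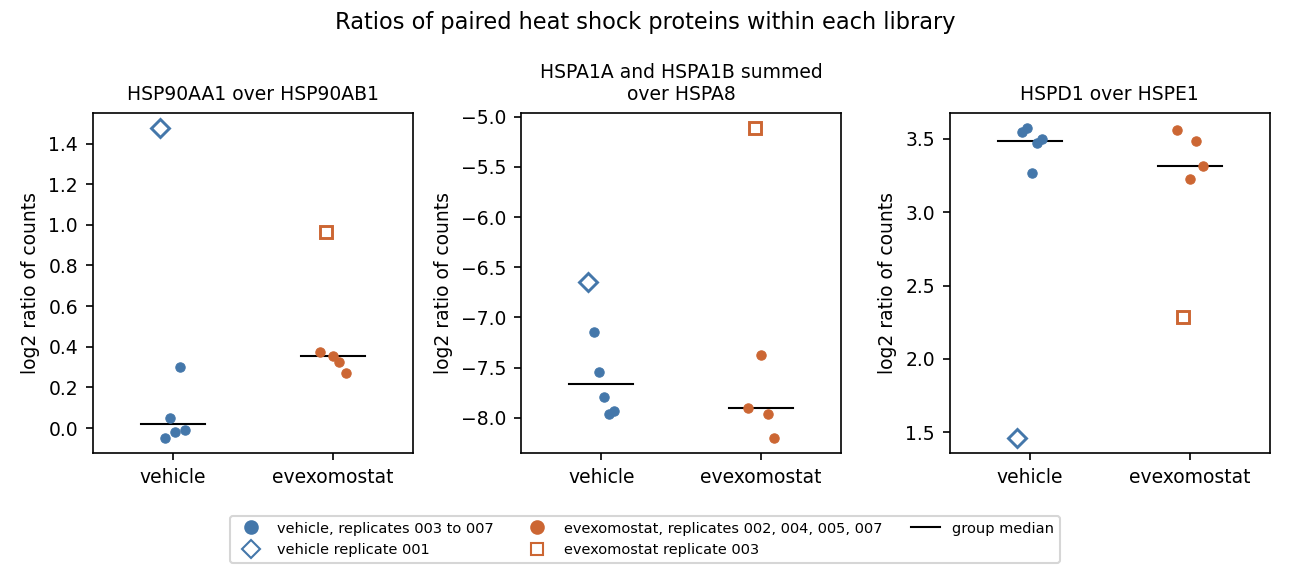
Log2 ratio of counts of paired heat shock proteins in each library, vehicle beside evexomostat, with the group median as a line. Vehicle replicate 001 (open diamond, 1.47) and evexomostat replicate 003 (open square, 0.96) have the highest HSP90AA1 to HSP90AB1 ratios and the lowest HSPD1 to HSPE1 ratios. The ratio of HSPA1A and HSPA1B summed to HSPA8 cannot be read as inducible to constitutive HSP70.

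Whether the members vary together from tumour to tumour was asked over all 45 pairs, with Pearson's r and Spearman's rho of log2 CPM, 100000 permutations per pair and adjustment over the 45. By Pearson's r 6 pairs passed, 5 positive and 1 negative; by Spearman's rho 0 did. The closest pair was HSPA8 and HSP90AB1, the 2 constitutive chaperones (r = 0.93, permutation p = 0.00018, adjusted 0.0081; rho = 0.84, permutation p = 0.00212, adjusted 0.0668). HSP90AB1 also went with HSPH1 (r = 0.89, adjusted permutation p = 0.0090; rho = 0.80) and HSPD1 (r = 0.77, adjusted permutation p = 0.0466; rho = 0.75), HSPH1 with HSPD1 (r = 0.82, adjusted permutation p = 0.0249; rho = 0.79) and HSPA8 with HSPH1 (r = 0.75, adjusted permutation p = 0.0458; rho = 0.58). DNAJB1 and HSPB1 ran against each other (r = -0.77, adjusted permutation p = 0.0466; rho = -0.63). All 10 values come from the same libraries and share their scaling.

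Which pairs passed depended on the libraries kept. Without the 2 libraries farthest from the median of HSPA8, its r was 0.72 with HSP90AB1 and 0.18 with HSPH1. Treated likewise, the others were 0.63 (HSP90AB1 with HSPH1), 0.63 (HSP90AB1 with HSPD1), 0.70 (HSPH1 with HSPD1) and -0.58 (DNAJB1 with HSPB1). Leaving out the farthest libraries narrows the range of a gene, which by itself can lower r. Without vehicle replicate 001 and evexomostat replicate 003 instead, r of HSPA8 was 0.84 with HSP90AB1 and 0.55 with HSPH1. Without evexomostat replicate 003 no pair passed by r, and none did without vehicle replicate 005 either; after subtracting group means 7 did. Without vehicle replicate 001 and evexomostat replicate 003, 3 pairs passed, none of them among the former 6. They were HSPA8 with HSP90AA1 (r = 0.95, rho = 0.92, adjusted permutation p = 0.0191), HSPD1 with HSPE1 (r = 0.93, rho = 0.87, adjusted permutation p = 0.0191) and DNAJB1 with HSPH1 (r = 0.88, rho = 0.87, adjusted permutation p = 0.0262). With all libraries r was 0.20 for HSPA8 and HSP90AA1, where rho was 0.82, and 0.42 for HSPD1 and HSPE1, where rho was 0.55. The near-identical HSPA1A and HSPA1B had r = -0.49 (rho = -0.67, adjusted permutation p of r = 0.335), in which HSPA1A varied between 1 and 8 counts.

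**Figure D4:**
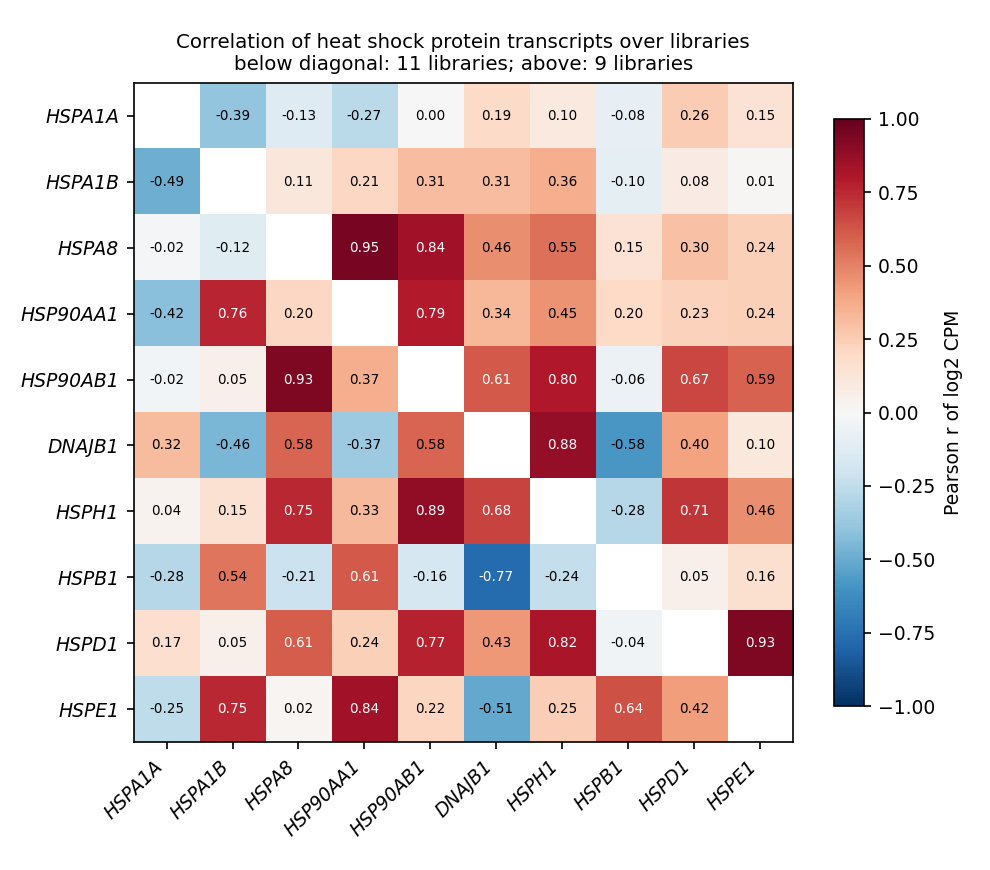
Pearson r of log2 CPM between each pair of heat shock protein genes, for 11 libraries below the diagonal and for the 9 without vehicle replicate 001 and evexomostat replicate 003 above it. HSPD1 with HSPE1 goes from 0.42 to 0.93 and HSPA8 with HSP90AA1 from 0.20 to 0.95, while HSPA8 with HSP90AB1 is high in both (0.93 and 0.84).

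Outside the members, the genes whose level over the 11 libraries was most like that of each are given as a description, 1 library deciding some of them. HSPE1 was nearest to NOP58, of the ribosome-assembly machinery (r = 0.98), and NDUFB3, of respiratory complex I (r = 0.98). Without vehicle replicate 001 and evexomostat replicate 003 these were 0.97 and 0.98 over 9 libraries. The 9 are among the 11 by which the genes were picked, so values over 9 are no separate check. HSPD1 was nearest to WDR76 (r = 0.96) and RFC3, a replication factor subunit (r = 0.95), at 0.95 each over the 9. HSP90AA1 was nearest to PSMA7, a proteasome subunit (r = 0.98, 0.91 over 9), DNAJB1 to FUBP1 (r = 0.96, 0.92 over 9) and HSP90AB1 to XRCC6, the Ku70 subunit of DNA repair (r = 0.95, 0.82 over 9). HSPB1 was nearest to C1orf53 (r = 0.96), HSPH1 to SRFBP1 (r = 0.93) and HSPA1B to THAP3 (r = 0.96). HSPA8 was nearest to RTCB (r = 0.93), STARD7 (r = 0.92) and DCTN5 (r = 0.91), but over the 9 libraries these were 0.52, -0.03 and 0.14.

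The other genes of the chaperone network, 79 in 8 lists by role, were compared in the same fit. In edgeR's test 0 of the 77 tested passed, and 6 did before adjustment, 3 in each direction, a smaller share than the 13.4% of all tested genes. DESeq2 called 2 and limma-voom with quality weights 3 of the 77, both smaller shares than those over all genes given above (3.9% and 6.37%). Their median log2 fold change was -0.03 beside -0.04 for all genes. Without vehicle replicate 001, 5 of 76 passed, 4 of them higher, in a comparison that called 5.22% of all genes (1.98% higher). The genes were HSPBP1, an exchange factor of HSP70 (log2 fold change 0.45, edgeR adjusted p = 0.0190), the prefoldin subunits PFDN2 (0.40, edgeR adjusted p = 0.0376) and PFDN4 (0.57, edgeR adjusted p = 0.0298), the mitochondrial exchange factor GRPEL2 (0.43, edgeR adjusted p = 0.0328) and, lower, BAG1. Without evexomostat replicate 003 too, 3 of 76 passed, beside 3.9% of all genes: HSPBP1 and the chaperonin subunit CCT5 higher, BAG1 lower. In the cytosolic chaperonin and prefoldin list, 8 of 13 tested genes had a positive log2 fold change with all libraries (median 0.04), where 44.6% of all tested genes did. Without both libraries, a choice made after the data had been seen, 13 of 13 did (median 0.27), beside 47.3% of all tested genes. Of these 13, 1 passed (CCT5). In the same setting 2 of 5 heat shock factors and partners were positive, as were 1 of 8 other HSP70 and HSP110 proteins. For J-domain proteins it was 8 of 10, for exchange and BAG proteins 4 of 8 and for HSP90 co-chaperones 8 of 11. Small heat shock proteins had 4 of 7, and mitochondrial chaperones and proteases 7 of 14.

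BAG1, which couples HSP70 to the proteasome and exchanges its nucleotide, came closest with all libraries. It had 95.5, 126 and 305 CPM in vehicle tumours (lowest, median, highest) and 65.3, 59.4, 57.2, 57.2 and 67.2 CPM in evexomostat replicates 002, 003, 004, 005 and 007. Every evexomostat tumour lay below every vehicle tumour, also without replicate 001, the highest. Over all tested genes, 2.97% had groups that did not overlap with all libraries. In edgeR's fit the log2 fold change was -1.26 ± 0.27 (SE; edgeR adjusted p = 0.0644), and -0.91 without that library (edgeR adjusted p = 0.00540).

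DNAJB2, a J-domain protein, had 52.2, 59.1 and 64.5 CPM in vehicle and 69.1, 103, 77.7, 75.0 and 69.0 CPM in evexomostat tumours. Its groups did not overlap either, as was so for 2.97% of all tested genes. EdgeR put the log2 fold change of DNAJB2 at 0.42 ± 0.13 (SE, edgeR adjusted p = 0.169). In the other lists the gene with the smallest p was HSF2, a heat shock factor (log2 fold change -0.17, edgeR adjusted p = 0.733), HSPA4L, of the HSP110 family (-0.54, edgeR adjusted p = 0.209), FKBP5, a co-chaperone of steroid receptor complexes (-0.67, edgeR adjusted p = 0.485), PFDN1 (0.24, edgeR adjusted p = 0.319) and GRPEL2 (0.33, edgeR adjusted p = 0.287). Among small heat shock proteins the smallest p was that of HSPB7 (-0.90 ± 0.43 SE, edgeR adjusted p = 0.393), a gene of heart and skeletal muscle. HSPB7 was low, at 0.291, 0.982 and 1.97 CPM in vehicle tumours (lowest, median, highest) and 0.403 to 0.797 CPM in evexomostat tumours. The range of summed muscle markers is given above, and their part here was not tested. HSF1 itself had a log2 fold change of 0.11 (edgeR adjusted p = 0.865). Chosen for the size of their values, HSPA6, a stress-induced HSP70, stood at -1.43 ± 0.79 (SE) on the log2 scale with an edgeR adjusted p of 0.471, and CRYAB, a small heat shock protein of lens and muscle, at 0.72 ± 0.35 (SE) with 0.404.

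**Figure D5:**
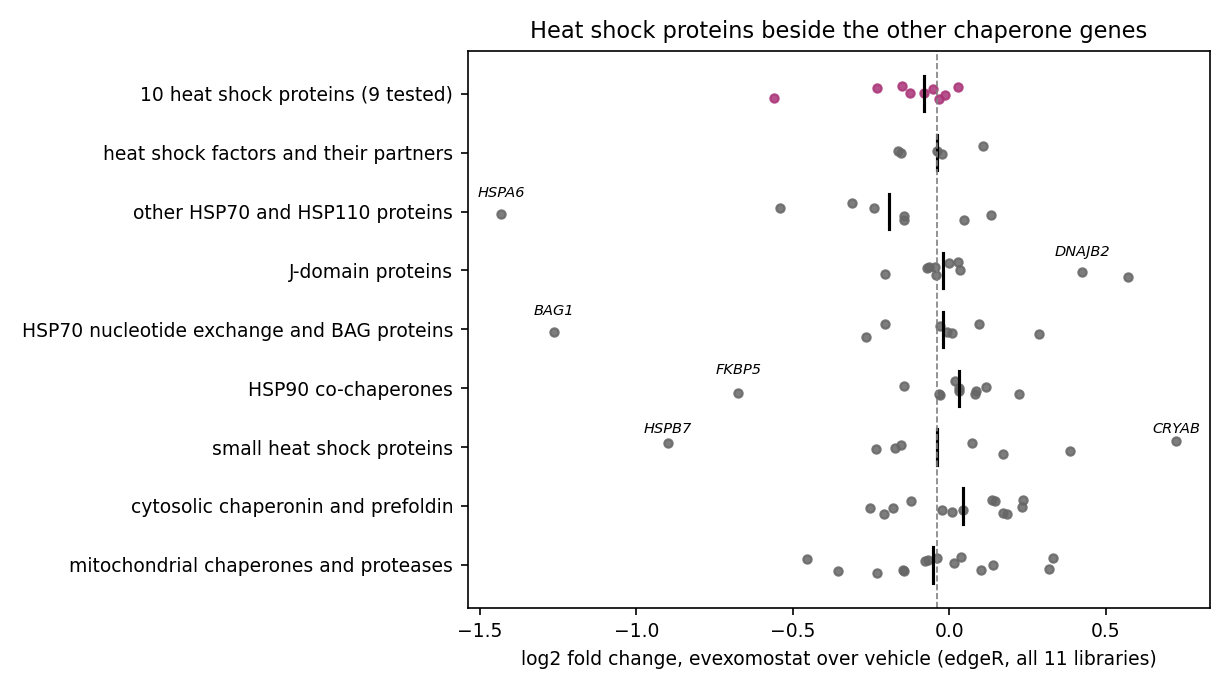
Log2 fold change of evexomostat over vehicle (all 11 libraries, edgeR) for the 9 tested heat shock proteins and for 77 other chaperone genes by role, with each list's median as a bar and the median of all genes (-0.04) as a dashed line. The heat shock proteins lie between -0.56 and 0.03, and BAG1, at -1.26, lies apart from its list.

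Immediate early genes, which respond within minutes to growth factors and to the handling of tissue, were looked at beside the heat shock genes. Of 8 tested, 0 passed in edgeR's test; before adjustment 4 were lower (FOS, FOSB, JUNB and ATF3) and 1 was higher (IER2), where 8.55% of all tested genes were lower and 4.82% higher. Their summed level ran from 962 to 1394 RPM in vehicle and from 981 to 1125 RPM in evexomostat tumours, with vehicle replicate 001 the lowest.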

How the data were processed

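RNA from 6 vehicle and 5 evexomostat tumours was sequenced as paired 150-base reads, per the labels' protocols. The submitters' processing notes name bcl2fastq 2.17, STAR 2.7.5c, featureCounts, Subread and edgeR and the builds GRCh37 and hg19; counting options, strand and mouse reads are not given in the sources used here. The authors' deposited tables hold whole-number counts per gene symbol, the same values as RPM (count over column total, checked to 2.27e-13), and log2 fold changes, p-values and adjusted p-values, per the file headers. Each library is a separate tumour, and p-values measure the spread between tumours of 1 cell line.

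From the counts, genes were kept with filterByExpr (minimum count 10, total 15; 16653 of 28152 symbols) and compared with edgeR 4.0.16 (R 4.3.3; TMM scaling, quasi-likelihood F-test, no covariates, Benjamini-Hochberg over all tested genes, threshold 0.05). Each SE was taken as the log2 fold change over the root of its F value. CPM is TMM-normalised; log2 CPM uses a prior count of 2; log2 ratios add 0.5 to each count. HSPA1A, at most 8 counts, was not tested. Alternatives were relative log expression scaling, library totals only, DESeq2 1.42.0, limma 3.58.1 (voom with quality weights; trend on log2(RPM + 1) and log2(RPM + 0.1)), no filter, a replicate block, summing HSPA1A and HSPA1B, and leaving out each library; leaving out vehicle replicate 001 with evexomostat replicate 003 was added after seeing the data. The fits were tested on simulated counts. Transcript lengths and shared windows came from GENCODE release 29 (94.6% of tested genes with a length). Neighbours came from the RefSeq order of protein-coding genes. Promoter windows came from RefSeq GRCh38.p14 (all 10 members matched), a build other than that of the counts.

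Named genes are the 10 members, chaperone-list genes past the threshold, the gene with the smallest p in each of 8 role lists, and the 3 non-member genes with the highest r to each member over 11 libraries; HSF1, HSPA6, CRYAB, the immediate early genes and those called without a library were named after their values were seen. The members and lists were chosen with earlier results of these data known.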

Additional observations from a re-analysis of the deposited data

Results flagged for a closer look

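Of 26 groups of values (the 10 genes in CPM and the 3 log2 ratios, in each treatment group), 10 had a highest or lowest library whose gap to its nearest neighbour was too large a part of the group's range. Chance flags about 1 in 20 groups, and the genes and ratios are not independent of each other. All 10 lay in 2 libraries, 5 in each.

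In vehicle replicate 001, HSP90AA1 was 3354 CPM where the other vehicle libraries reached 1217, HSPE1 was 313 CPM where they reached 112, and HSPA1B was 17.7 CPM where they reached 9.18. Its log2 ratio of HSP90AA1 to HSP90AB1 was 1.47 (others up to 0.30), and that of HSPD1 to HSPE1 was 1.46 (others at least 3.27).

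In evexomostat replicate 003, HSPA8 was 346 CPM where the other evexomostat libraries had at least 1568, and HSP90AB1 was 696 CPM where they had at least 1107. Its log2 ratios were 0.96 for HSP90AA1 to HSP90AB1 (others up to 0.38), -5.12 for HSPA1A and HSPA1B summed to HSPA8 (others up to -7.37) and 2.28 for HSPD1 to HSPE1 (others at least 3.23).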

How the results depend on the processing

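No member passed the threshold under any of the 22 alternatives run, and HSPD1 kept a negative log2 fold change in all of them; each of the other 8 tested members changed sign under at least 4 of them. The cause of the changes listed here was not tested. HSPA1A, at 1 to 8 counts per library, was under the count filter, and the part of read handling in its low counts was not tested.

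With library totals only, 62 genes passed over all genes (101 with TMM) and the median log2 fold change of all genes went from -0.04 to 0.06; HSP90AA1 was then 0.10, HSP90AB1 0.080, HSPA8 0.0345 and HSPH1 0.0119. DESeq2 called 649 genes and 2 of the chaperone lists. Quality weights gave 1060 and 3, with HSPA1B 0.067, HSPA8 0.12, HSP90AA1 0.37, HSP90AB1 0.10, DNAJB1 -0.0053, HSPH1 0.012, HSPB1 0.031 and HSPE1 0.12. With no count filter, 1 chaperone-list gene passed. On log2(RPM + 1), HSPA1B was 0.038, HSP90AA1 0.23, HSP90AB1 0.064, HSPH1 0.0064 and HSPB1 0.0071; on log2(RPM + 0.1) they were 0.048, 0.23, 0.064, 0.0064 and 0.0072. On log2(RPM + 1), 2 pairs of members passed by Pearson's r where 6 did in CPM.

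Whether the replicate numbers pair the tumours is not given in the sources used here. Same-numbered libraries had deviations from their group means correlated at -0.27, 0.07, 0.05 and -0.10 (numbers 003, 004, 005 and 007). So few values show no shared deviation but cannot settle how the numbers were given. With a replicate block on the 8 libraries that share numbers, 107 genes passed, against 733 with no replicate block on the same libraries, which also called 3 chaperone-list genes. Under the replicate block HSPA1B was 0.16, HSP90AA1 0.41, DNAJB1 -0.21, HSPB1 0.34 and HSPE1 0.088, and the HSPD1 to HSPE1 log2 ratio differed by -0.40; without the block on the same libraries they were 0.16, 0.40, -0.20, 0.35 and 0.044.

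Leaving out 1 library gave 1 to 865 genes over all genes (1 without evexomostat replicate 005, 2 without 002, 3 without 007, 28 without 004, 46 without 003; 52, 46 and 56 without vehicle replicates 003, 004 and 007), 0 to 5 chaperone-list genes and 0 to 9 pairs. The ranges of log2 fold changes were -0.25 to 0.19 for HSPA1B, -0.14 to 0.20 for HSPA8, -0.13 to 0.40 for HSP90AA1, -0.061 to 0.11 for HSP90AB1, -0.083 to 0.13 for DNAJB1, -0.18 to 0.02 for HSPH1, -0.25 to 0.060 for HSPB1 and -0.70 to 0.10 for HSPE1. The differences in log2 ratios ran from 0.040 to 0.40 (HSP90AA1 to HSP90AB1), from -0.35 to 0.41 (HSPA1A and HSPA1B to HSPA8) and from -0.30 to 0.26 (HSPD1 to HSPE1). Without vehicle replicate 001 and evexomostat replicate 003 together, 652 genes, 3 chaperone-list genes and 3 pairs passed; HSPA1B was 0.075, HSPA8 0.25, HSP90AA1 0.41, HSP90AB1 0.14 and HSPH1 0.048, and the HSPD1 to HSPE1 ratio differed by -0.077 and that of HSPA1A and HSPA1B to HSPA8 by -0.18.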
